A study of Mus musculus with 58 samples.

Results

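Of the array's 382 CpGs and 381 gene names, 9 CpGs, 1 for each of 9 genes, are described here as receptors for thromboxane, the prostaglandins and the leukotrienes. They were found by name: the array's gene name is Tbxa2r or Cysltr2, or begins with Ptge, Ptgf, Ptgi, Ptgd or Ltb4r. This choice of genes was made with earlier results of these data known. The 9 names found are Tbxa2r, Ptgdr, Ptger2, Ptger3, Ptger4, Ptgfr, Cysltr2, Ltb4r1 and Ltb4r2, all of them receptor genes. Cysltr1, another leukotriene receptor gene on the array, falls outside these names and is given further below. DNA methylation was measured in genomic DNA from mouse brain tissue with a custom Illumina GoldenGate array, a bead assay that tells methylated from unmethylated CpGs after bisulphite conversion of the DNA. The reading at a CpG is its beta value, which runs from 0 (unmethylated) to 1 (fully methylated).

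A set of 53 samples came from C57BL/6 mice labelled as healthy or, for the frontal cortex, as wild type; DG F7, F8 and F9 are labelled healthy and carry WT in their titles, as the frontal cortex samples do. They cover 11 regions. In the forebrain these were CA3 (n = 4) and dentate gyrus (DG, n = 5) of the hippocampus, frontal cortex (FC_WT, n = 2), basolateral amygdala (BLA, n = 5), globus pallidus (GP, n = 5), caudate-putamen (CPU, n = 6), thalamus (TH, n = 5) and hypothalamus (HYP, n = 5). The others were substantia nigra (SN, n = 6), the tissue labelled Purkinje cells (PC, n = 4) and that labelled granular cell layer (GCL, n = 6). A further 3 frontal cortex samples and 1 CA1 sample came from mice of genotype 3TG on a C57BL/6-129 background. Neither age nor the transgenes are named in the labels. Nothing in them ties each sample to its own mouse, and the p-values below therefore reflect only how far these samples spread, which may be technical. In bulk tissue a different mix of cell types and a different methylation level per cell cannot be told apart.

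Thromboxane A2, the prostaglandins and the leukotrienes are lipid mediators made from arachidonic acid, the first and the prostaglandins through cyclooxygenases and the leukotrienes through a lipoxygenase. They act through G protein-coupled receptors on nearby cells, where they regulate platelet activation, vessel tone, fever, pain, sleep and the recruitment of white blood cells. In the brain these receptors are found on neurons, glia and vessels and are studied in neuroinflammation and in the control of blood flow.

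The array's CpGs are named by gene and a number, with no coordinates, so their place relative to the gene is not known here. Promoter sequence from RefSeq (GRCm38.p6) was found for 8 of the 9 genes. The 5 sequences below are the 250 bases before the annotated start of the 4 genes whose methylation differed between regions and, for contrast, of the sparsely methylated Ptger4, written 5′ to 3′ on the gene's strand with each CG dinucleotide in capitals.
Tbxa2r (chr10:81328018-81328267, plus strand): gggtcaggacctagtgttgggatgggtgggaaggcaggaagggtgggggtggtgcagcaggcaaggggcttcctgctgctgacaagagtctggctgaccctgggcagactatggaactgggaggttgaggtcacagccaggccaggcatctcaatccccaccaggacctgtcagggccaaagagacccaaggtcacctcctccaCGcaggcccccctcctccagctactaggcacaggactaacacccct
Ptger2 (chr14:44987861-44988110, plus strand): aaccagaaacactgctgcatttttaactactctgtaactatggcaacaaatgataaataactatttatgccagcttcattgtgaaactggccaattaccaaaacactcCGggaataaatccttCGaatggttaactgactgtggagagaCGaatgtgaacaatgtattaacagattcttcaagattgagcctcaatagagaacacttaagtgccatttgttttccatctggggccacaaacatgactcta
Cysltr2 (chr14:73049115-73049364, minus strand): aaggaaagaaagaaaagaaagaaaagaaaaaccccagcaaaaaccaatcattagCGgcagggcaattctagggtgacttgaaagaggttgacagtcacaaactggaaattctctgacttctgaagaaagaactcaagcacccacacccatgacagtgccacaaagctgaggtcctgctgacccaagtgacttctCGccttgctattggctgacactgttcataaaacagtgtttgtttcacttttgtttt
Ltb4r1 (chr14:55765712-55765961, plus strand): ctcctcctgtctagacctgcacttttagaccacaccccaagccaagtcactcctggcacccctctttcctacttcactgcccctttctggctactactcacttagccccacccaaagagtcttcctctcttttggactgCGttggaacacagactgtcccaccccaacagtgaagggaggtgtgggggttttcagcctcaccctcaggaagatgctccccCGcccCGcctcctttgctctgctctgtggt
Ptger4 (chr15:5244188-5244437, minus strand): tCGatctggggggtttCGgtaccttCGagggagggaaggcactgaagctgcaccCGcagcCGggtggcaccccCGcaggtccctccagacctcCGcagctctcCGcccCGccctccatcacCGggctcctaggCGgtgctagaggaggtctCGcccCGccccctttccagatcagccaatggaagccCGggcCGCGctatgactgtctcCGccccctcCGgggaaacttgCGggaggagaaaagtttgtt

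CG dinucleotides were sparse in the promoters of the regionally variable genes. The window of Tbxa2r holds 1 CG, that of Cysltr2 2, and those of Ptger2 and Ltb4r1 3 each, against 19 in Ptger4. Among 27025 RefSeq promoters the median was 6, and 91.7% hold at least as many as that Tbxa2r window and 19.6% at least as many as Ptger4. A second annotated start of Tbxa2r has 7. The weakly methylated genes Ptger3 and Ptgfr have 21 and 10, while Ptgdr, also weakly methylated, has 2, so the order of CG counts is not the order of beta. Whether an array CpG lies in its window is not known. Ltb4r1 and Ltb4r2 are neighbours on chromosome 14 with 0 protein-coding genes between them, as are Ptgdr and Ptger2.

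Methylation of the receptor genes spanned nearly the whole scale. Ptger3, Ptgfr, Ptgdr and Ptger4 were sparsely methylated, with a mean beta over the 53 samples of 0.0356, 0.0460, 0.0834 and 0.0896. Ptger2 lay at 0.219, Ltb4r1 at 0.529, Cysltr2 at 0.673, Tbxa2r at 0.678 and Ltb4r2 at 0.922. The median of the 9 means was 0.219, against 0.110 over all 382 CpGs. The neighbours Ltb4r1 and Ltb4r2, which both bind leukotriene B4, thus carried CpGs at different levels.

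Regional differences were wide at 4 of these genes and narrow at 5. The difference between the highest and the lowest region mean was 0.350 at Tbxa2r, the 7th widest of the 382 CpGs, 0.201 at Cysltr2, 0.148 at Ptger2 and 0.116 at Ltb4r1. At the other 5 genes it ran from 0.0129 at Ptger3 to 0.0398 at Ptgdr. The median difference was 0.0398 over the 9 genes and 0.0496 over all CpGs, and the median SD within regions 0.0256 and 0.0184. An F-test over the 11 regions, from limma on log2(beta / (1 - beta)) with Benjamini-Hochberg adjustment over the 382 CpGs, called Tbxa2r (adjusted p = 7.69e-14), Ptger2 (2.56e-07), Cysltr2 (1.91e-05) and Ltb4r1 (0.00744) at an adjusted p under 0.05. That is 4 of 9 genes, where 44.5% of all CpGs were called. Setting each region against the unweighted mean of the other 10 gave 16 calls of 99 tests, against 15.9% over all CpGs, and the 55 pairs of regions gave 75 calls of 495 tests, against 14.9%. All 3 shares lay close to those of the whole array.

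**Figure D1:**
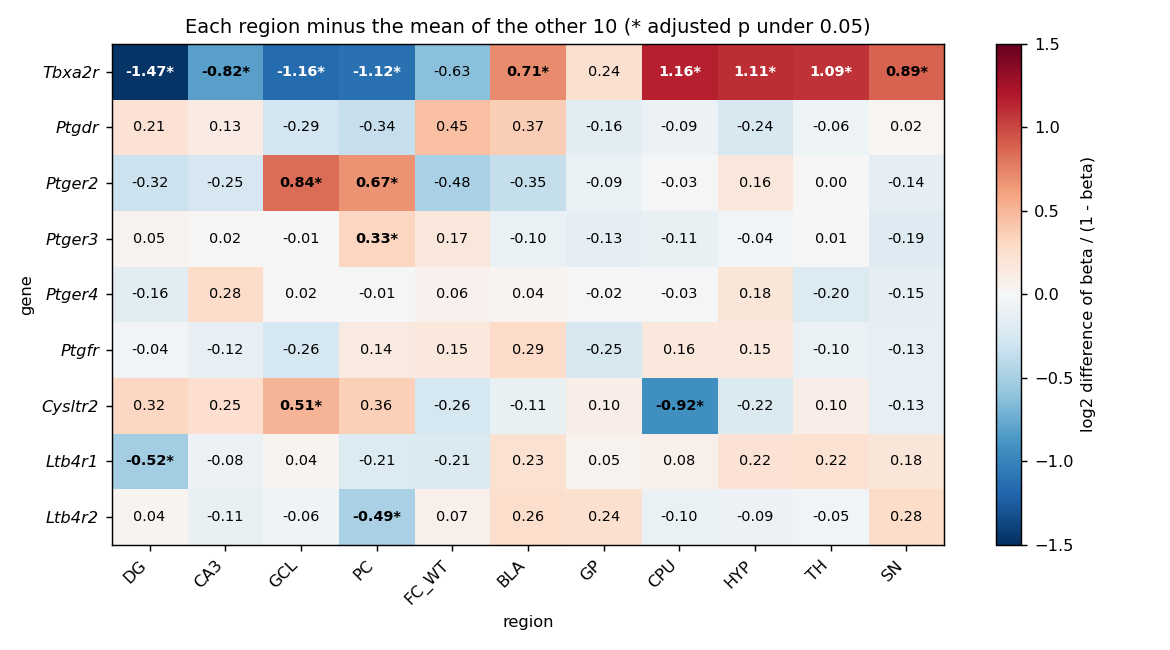
Heat map of the difference in log2(beta / (1 - beta)) between each of the 11 regions (columns) and the mean of the other 10, for the 9 receptor genes (lines); a star marks an adjusted p under 0.05 in limma. Tbxa2r has 9 stars, with negative differences in DG, GCL, PC and CA3 and positive ones in CPU, HYP, TH, SN and BLA, and no other gene has more than 2.

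Tbxa2r encodes the thromboxane A2 receptor, which activates platelets and constricts vessels. Its methylation was lower in DG, GCL, PC and CA3 than in CPU, HYP, TH, SN and BLA. The 5 samples of DG had a beta of 0.303, 0.384, 0.435, 0.595 and 0.597. The 6 of GCL ran from 0.474 through a median of 0.509 to 0.549, and the 4 of PC were at 0.464, 0.491, 0.520 and 0.586. The 4 samples of CA3 were at 0.498, 0.547, 0.553 and 0.648. None of these 19 samples reached 0.65.

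At the other end of the order, CPU ran from 0.710 through a median of 0.836 to 0.860 and SN from 0.742 through 0.790 to 0.830. HYP was at 0.741, 0.792, 0.803, 0.835 and 0.871, and TH at 0.775, 0.789, 0.800, 0.835 and 0.845. BLA was at 0.687, 0.738, 0.778, 0.801 and 0.830. The 27 samples of these 5 regions lay at 0.687 or above and did not overlap with the 19 samples of DG, GCL, PC and CA3, whose highest was 0.648, although this grouping was made after the values were seen. FC_WT, at 0.532 and 0.648, and GP, at 0.585, 0.696, 0.712, 0.743 and 0.807, lay between. FC_WT stayed below the lowest of the 27, and GP overlapped with both sides.

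From the lowest to the highest, the means of Tbxa2r were those of DG (0.463 ± 0.130, SD, n = 5), GCL (0.509 ± 0.0314, n = 6), PC (0.515 ± 0.0525, n = 4), CA3 (0.561 ± 0.0626, n = 4), FC_WT (0.590 ± 0.0820, n = 2), GP (0.709 ± 0.0812, n = 5), BLA (0.767 ± 0.0558, n = 5), SN (0.789 ± 0.0306, n = 6), HYP (0.808 ± 0.0484, n = 5), TH (0.809 ± 0.0299, n = 5) and CPU (0.813 ± 0.0558, n = 6). None of the 10 pairs of neighbours in this order differed in limma, and the lowest adjusted p, 0.111, was that of FC_WT and GP. Of all 55 pairs of regions 29 were called, against a median of 4 pairs per CpG on the array. At least as many were called at 18 CpGs, Tbxa2r among them.

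Against the other 10 regions, Tbxa2r was lower in DG by a log2 difference of -1.47 ± 0.20 (SE, limma, adjusted p = 3.12e-07). In DG 16.2% of all CpGs were called lower. Tbxa2r was lower in GCL (-1.16 ± 0.19, adjusted p = 1.68e-06, against 14.1% of CpGs called lower there). It was also lower in PC (-1.12 ± 0.22, adjusted p = 9.46e-05, against 11.8%) and CA3 (-0.82 ± 0.22, adjusted p = 0.0362, against 2.09%). It was higher in CPU (1.16 ± 0.19, adjusted p = 5.76e-06, against 5.76% of CpGs called higher there). In HYP it was higher too (1.11 ± 0.20, adjusted p = 5.96e-05, against 8.64%). The same held for TH (1.09 ± 0.20, adjusted p = 0.000199, against 5.5%), SN (0.89 ± 0.19, adjusted p = 0.000516, against 12.6%) and BLA (0.71 ± 0.20, adjusted p = 0.0191, against 6.54%). FC_WT, with a difference of -0.63, and GP, with 0.24, did not pass.

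The low mean of DG rested on part of its samples. DG F7, F8 and F9, the samples with WT in their titles, had a mean of 0.374 (0.303 to 0.435), whereas DG F3 and M2 were at 0.595 and 0.597, inside the range of CA3 and still below all 27 samples of CPU, HYP, TH, SN and BLA. Without F7 to F9 the log2 difference of DG was -0.68 and no longer passed (adjusted p = 0.260). The CA3 call was lost without CA3 F3 (-0.69, adjusted p = 0.373), M1 (-0.80, 0.121) or M4 (-0.79, 0.152) and without FC_WT 1_a (-0.78, 0.0564). The BLA call was lost without BLA F1 (0.69, adjusted p = 0.0605), M1 (0.57, 0.174) or M4 (0.64, 0.106).

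**Figure D2:**
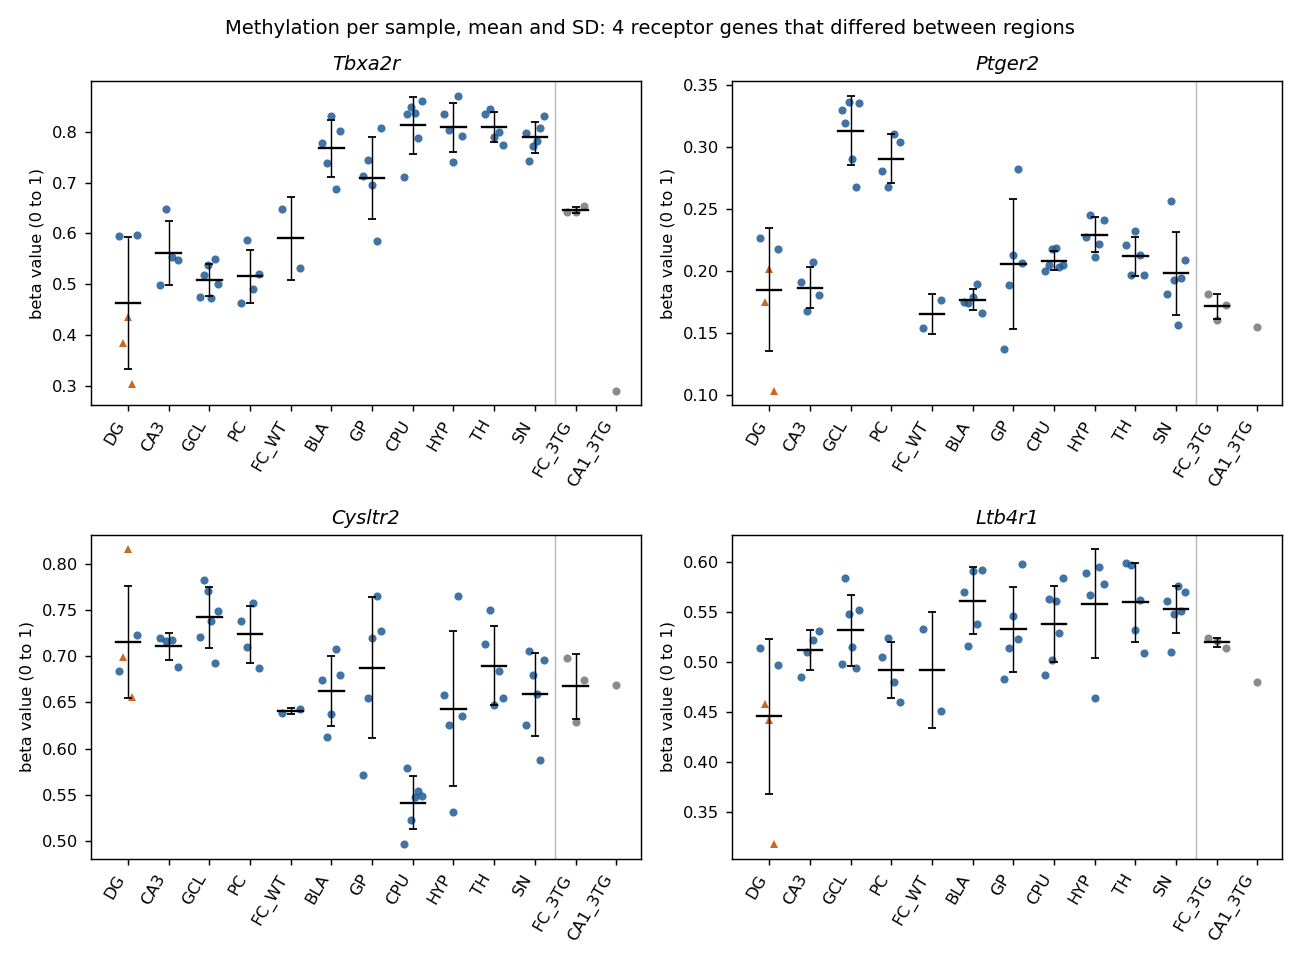
Beta value of each sample by group for Tbxa2r, Ptger2, Cysltr2 and Ltb4r1, with bars for the mean and lines for 1 SD; orange triangles are DG F7, F8 and F9, grey marks the 3TG groups, and the y axes do not start at 0. Tbxa2r lies under 0.65 in all samples of DG, GCL, PC and CA3, Ptger2 is highest in GCL and PC, Cysltr2 is lowest in CPU, and the lowest Ltb4r1 value, 0.317, is DG F9.

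Among other genes on the array, the 11 region means of Tbxa2r were most like those of the neuromedin receptor gene Nmur2 (Pearson r = 0.940, from 0.143 in GCL to 0.434 in SN), of Sorbs3, which encodes an adaptor of the actin cytoskeleton (0.938, from 0.240 in GCL to 0.576 in CPU), and of the astrocyte filament gene Gfap (0.922, from 0.469 in DG to 0.805 in TH). The most opposite pattern was at Chrna10, a nicotinic receptor subunit gene (-0.959, from 0.256 in CPU to 0.428 in DG). These correlations describe 11 region means taken from the same arrays. Gfap is one of the 2 astrocyte marker genes on the array, both of which differed between regions, the other being Slc1a3 (0.145 in FC_WT to 0.241 in PC). Of 6 oligodendrocyte marker genes 2 differed, and of 3 neuronal ones 1, while no microglial or endothelial marker of the lists was on the array. Over all CpGs 44.5% were called in this test. The part of cell composition in the Tbxa2r differences was not tested.

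Ptgdr encodes the DP receptor for prostaglandin D2, a mediator of sleep regulation. Its beta was between 0.0521 and 0.168 in the 53 samples, with region means from 0.0669 ± 0.00513 (SD, n = 4) in PC to 0.107 ± 0.0227 (n = 2) in FC_WT. PC, at 0.0601 to 0.0723, lay below FC_WT (0.0907 and 0.123) and CA3 (0.0750 to 0.0996), but the gene did not pass the F-test (adjusted p = 0.331) or in any of the 55 pairs of regions. The spread within a region was wide for so low a level: the 5 samples of BLA were at 0.0682, 0.0688, 0.0952, 0.139 and 0.161.

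Ptger2, its neighbour on the chromosome, encodes EP2, a prostaglandin E2 receptor that raises cyclic AMP. It was most methylated in GCL and PC. GCL ran from 0.268 through a median of 0.324 to 0.336 (0.313 ± 0.0280, SD, n = 6), and the 4 samples of PC were at 0.268, 0.280, 0.303 and 0.310 (0.290 ± 0.0198). The next region was HYP, at 0.211, 0.222, 0.227, 0.241 and 0.245 (0.229 ± 0.0138, n = 5), and the lowest FC_WT, at 0.154 and 0.177. Of the 43 samples of the 9 other regions, 1, from GP at 0.282, lay above the lowest sample of GCL and PC. Of the 10 samples of GCL and PC, 3 lay below that GP sample. Both regions were singled out after the values were seen.

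The log2 difference of Ptger2 from the other regions was 0.84 ± 0.12 in GCL (SE, limma, adjusted p = 6.73e-08), where 8.12% of CpGs were called higher. In PC it was 0.67 ± 0.14 (adjusted p = 0.00018), and 34.8% of CpGs were called higher there. GCL and PC themselves differed by less than the spread, GCL minus PC being 0.15 with a 95% confidence interval from -0.20 to 0.50. Of the 55 pairs 18 were called, and 17 of these set GCL or PC against another region. HYP and PC did not pass (adjusted p = 0.0585). Of the remaining regions, FC_WT (-0.48, adjusted p = 0.0509) and BLA (-0.35, adjusted p = 0.0875) had the lowest values against the rest, without passing. DG was uneven here too, at 0.104, 0.175, 0.202, 0.218 and 0.227, the lowest being F9.

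The region means most like those of Ptger2 were of Id1, which encodes an inhibitor of DNA-binding factors (r = 0.936, from 0.0520 in FC_WT to 0.205 in PC), the galanin receptor gene Galr1 (0.902, from 0.0649 in CPU to 0.103 in GCL) and Ush1g (0.887, from 0.256 in FC_WT to 0.687 in PC). The nicotinic receptor subunit gene Chrna9 was most opposite (-0.936, from 0.826 in PC to 0.949 in BLA). Of these genes, Id1 and Ush1g were at their lowest in FC_WT, as Ptger2 was, and Galr1 at its highest in GCL.

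Ptger3 encodes EP3, the prostaglandin E2 receptor of the fever response, which mostly lowers cyclic AMP. It was nearly unmethylated, between 0.0278 and 0.0616 in all samples, with region means from 0.0319 ± 0.00264 (SD, n = 6) in SN to 0.0447 ± 0.0127 (n = 4) in PC. The 4 samples of PC were at 0.0337, 0.0364, 0.0472 and 0.0616, so that a pair lay within the other regions and M3 above all other samples. PC was called higher (0.33 ± 0.11, SE, limma, adjusted p = 0.0151). In that direction 2 of the 9 genes were called in PC, against 34.8% of all CpGs. PC F2 and M3 also had the highest first quartiles of beta over all CpGs in their group, 0.0759 and 0.0995 against 0.0555 and 0.0543, and the median log2 difference from the other regions over all CpGs was 0.20 in PC, the widest beside -0.19 in FC_WT. Without PC F2 and M3 the difference at Ptger3 was 0.0018 (adjusted p = 0.996), and with quantile normalization of the arrays it was -0.02. The F-test gave an adjusted p of 0.179.

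Ptger4 encodes EP4, which like EP2 raises cyclic AMP and takes part in vessel dilation and inflammation. Its beta lay between 0.0613 and 0.142, with region means from 0.0800 ± 0.0126 (SD, n = 5) in TH to 0.106 ± 0.0265 (n = 4) in CA3. CA3 was at 0.0790, 0.0973, 0.107 and 0.142, which spans the level of every other region's mean. No region and no pair of regions passed (F-test, adjusted p = 0.487).

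Ptgfr encodes FP, the prostaglandin F2α receptor that contracts smooth muscle and drives regression of the corpus luteum. Its beta was between 0.0305 and 0.0758, and the means ran from 0.0391 ± 0.00406 (SD, n = 6) in GCL to 0.0546 ± 0.00670 (n = 5) in BLA. GCL lay between 0.0336 and 0.0434 with a median of 0.0395, and BLA was at 0.0476, 0.0503, 0.0538, 0.0564 and 0.0650, above all 6 samples of GCL. This was the 1 pair of regions called (BLA minus GCL 0.50 ± 0.15, SE, adjusted p = 0.0131). The F-test missed the threshold (adjusted p = 0.0694). It passed with quantile normalization (2.14e-05), with arrays centred on their median (0.00531), without DG F7 to F9 (0.0485) and without PC F2 and M3 (0.00711). The highest values were PC M3 at 0.0758, BLA F4 at 0.0650 and PC F2 at 0.0601, while PC F1 and F4 were at 0.0371 and 0.0353.

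**Figure D3:**
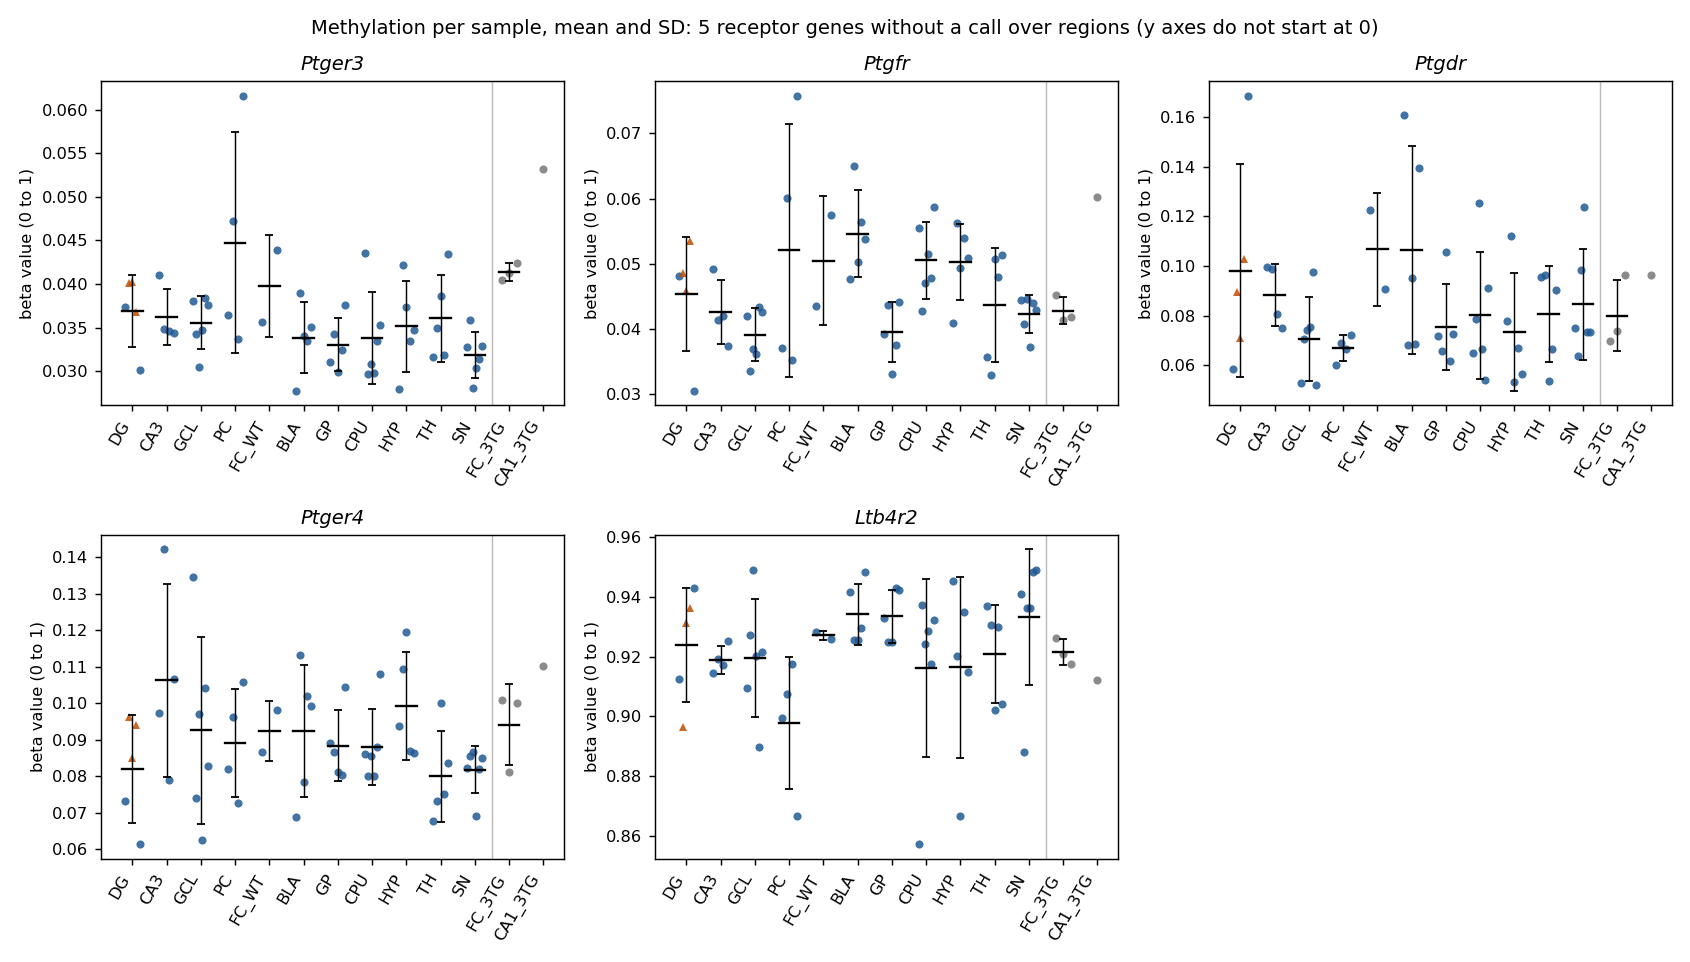
Beta value of each sample by group for Ptger3, Ptgfr, Ptgdr, Ptger4 and Ltb4r2, with bars for the mean and lines for 1 SD; orange triangles are DG F7, F8 and F9, grey marks the 3TG groups, and the y axes do not start at 0. Most groups overlap at these 5 genes, with exceptions such as BLA above GCL at Ptgfr, and in PC the samples of Ptger3 and Ptgfr are spread from 0.0337 to 0.0616 and from 0.0353 to 0.0758.

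Cysltr2 encodes the CysLT2 receptor for cysteinyl leukotrienes, mediators of smooth muscle contraction and vessel leakage. Its methylation was lowest in CPU. The 6 samples of CPU ran from 0.496 through a median of 0.548 to 0.579, with a mean of 0.541 ± 0.0286 (SD). GCL had the highest mean, 0.743 ± 0.0331 (n = 6), and ran from 0.693 through 0.744 to 0.783. Of the 47 samples of the other 10 regions, 2, HYP F4 at 0.532 and GP F1 at 0.572, lay below the highest sample of CPU. Of the 6 samples of CPU, 4 lay above the lowest of those 47, and CPU was singled out after the values were seen.

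The other means were 0.641 ± 0.00342 in FC_WT (SD, n = 2), 0.643 ± 0.0838 in HYP (n = 5), 0.659 ± 0.0452 in SN (n = 6), 0.662 ± 0.0376 in BLA (n = 5), 0.688 ± 0.0762 in GP (n = 5), 0.690 ± 0.0427 in TH (n = 5), 0.711 ± 0.0147 in CA3 (n = 4), 0.716 ± 0.0610 in DG (n = 5) and 0.724 ± 0.0310 in PC (n = 4). CPU was lower than the other regions by a log2 difference of -0.92 ± 0.14 (SE, limma, adjusted p = 4.01e-06), where 4.19% of CpGs were called lower. GCL was higher by 0.51 ± 0.14 (adjusted p = 0.00496). Of the 13 pairs called, 9 set CPU against another region, FC_WT being the exception (adjusted p = 0.105), and 4 set GCL against BLA, FC_WT, HYP and SN. CPU was thus at the top of the order for Tbxa2r and at the bottom for Cysltr2.

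The 11 region means of Cysltr2 were most like those of the myosin gene Myo5a (r = 0.835, from 0.634 in CPU to 0.776 in PC), Chrna10 (0.767) and the vasopressin receptor gene Avpr1b (0.734, from 0.592 in CPU to 0.768 in PC). They ran opposite to those of Id3, another inhibitor of DNA-binding factors (-0.892, from 0.0684 in GCL to 0.157 in CPU). Chrna10, most opposite to Tbxa2r, was thus among the genes most like Cysltr2, and the means of Tbxa2r and Cysltr2 themselves were correlated at -0.674. Within regions that correlation was 0.106 over 53 samples.

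Ltb4r1 encodes BLT1, the high-affinity leukotriene B4 receptor of white blood cells. Its methylation was lowest in DG, at 0.317, 0.442, 0.457, 0.497 and 0.514 (0.445 ± 0.0774, SD, n = 5). The other means rose from 0.492 ± 0.0580 in FC_WT (n = 2) and 0.492 ± 0.0281 in PC (n = 4) through 0.512 ± 0.0200 in CA3 (n = 4), 0.532 ± 0.0356 in GCL (n = 6), 0.533 ± 0.0426 in GP (n = 5), 0.538 ± 0.0380 in CPU (n = 6), 0.553 ± 0.0233 in SN (n = 6), 0.558 ± 0.0542 in HYP (n = 5) and 0.560 ± 0.0396 in TH (n = 5) to 0.561 ± 0.0336 in BLA (n = 5). DG overlapped with the rest: 14 of the 48 other samples lay below its highest, and 2 of its own 5 lay below the lowest of the others, 0.451.

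DG was lower than the other regions by a log2 difference of -0.52 ± 0.12 (SE, limma, adjusted p = 0.00115), and all 7 pairs called set DG against another region. DG F7 to F9 were at a mean of 0.405, and F3 and M2 at 0.514 and 0.497. Without F7 to F9 it was -0.16 (adjusted p = 0.778) and the F-test was lost (0.135); without F9 alone it was -0.32 (adjusted p = 0.0616). The F-test was also lost with quantile normalization (0.0568) and with centred arrays (0.0756).

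Tbxa2r and Ltb4r1, on chromosomes 10 and 14, varied together. Their region means were correlated at 0.842 over 11 regions, and their deviations from the region means at 0.703 over 53 samples. Samples share an array across both genes, so this is a description of these arrays. DG had the lowest mean at both genes, and in it F7 to F9 lay below F3 and M2. Their means were 0.374 against 0.596 at Tbxa2r and 0.405 against 0.505 at Ltb4r1. The correlations were not computed without F7 to F9. The 11 region means of Ltb4r1 were also like those of Nkx6-2, a homeobox gene of oligodendrocytes that did not itself pass the F-test (0.807), Dek, a chromatin protein gene (0.802, from 0.108 in FC_WT to 0.191 in SN), and the ATP receptor gene P2rx6 (0.789, from 0.0990 in GCL to 0.266 in HYP). They were most opposite to those of the glutamate receptor gene Grm4 (-0.870), which did not pass either.

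**Figure D4:**
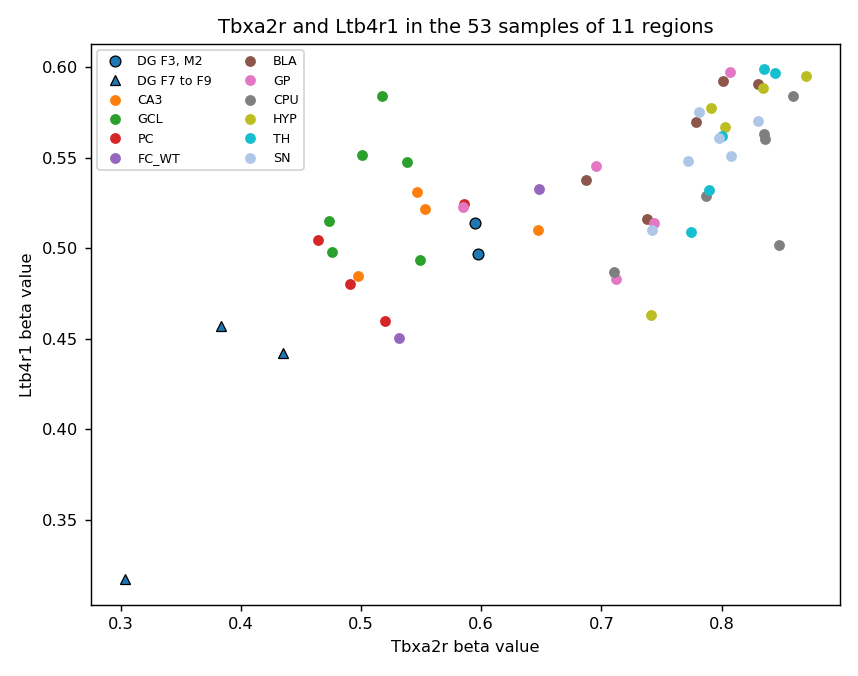
Beta of Ltb4r1 against beta of Tbxa2r in the 53 samples of 11 regions; triangles are DG F7, F8 and F9. The points rise together from DG F9, at 0.303 for Tbxa2r and 0.317 for Ltb4r1, and the Pearson correlation of the deviations from region means is 0.703.

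Ltb4r2 encodes BLT2, the low-affinity receptor for leukotriene B4. It was highly methylated in every sample, between 0.857 and 0.949, with region means from 0.898 ± 0.0220 (SD, n = 4) in PC to 0.934 ± 0.0103 (n = 5) in BLA. PC was at 0.867, 0.900, 0.908 and 0.918, below all samples of GP and BLA and overlapping with the rest but for FC_WT. PC was called lower (-0.49 ± 0.19, SE, limma, adjusted p = 0.0342), but not without PC F2 and M3 (-0.33, adjusted p = 0.506), nor without F1 (-0.49, 0.0617), F2 (-0.53, 0.0601) or M3 (-0.34, 0.298) alone, nor with quantile normalization (-0.04). In the regions the deviations of Ltb4r2 ran against those of Ptger3 (r = -0.620 over 53 samples), and those of the sparsely methylated Ptger3 and Ptgfr ran together (0.827). Samples share an array across these genes too, so both correlations describe these arrays, among them PC F2 and M3 with their high first quartiles. The F-test gave an adjusted p of 0.279.

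Other genes of the eicosanoid pathway were hardly represented. Of 34 names, some of them synonyms, listed for eicosanoid synthesis, breakdown, transport and further receptors, 1 was on the array. This was Cysltr1, the other cysteinyl leukotriene receptor gene. It differed between regions (0.116 in PC to 0.329 in FC_WT, limma F-test, adjusted p = 0.000593) and was, unlike Cysltr2, not lowest in CPU. That F-test had no term for the code letters F and M, whose mix differs between regions. Of 25 coupling proteins and effectors 1 was present, the adenylate cyclase gene Adcy9 (0.124 in BLA to 0.410 in DG), which did not pass (adjusted p = 0.129).

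The list for other lipid mediator receptors held 36 names, with old and current names of the same genes counted apart. On the array were 12 of these genes, and 8 differed between regions, where 44.5% of all CpGs did. The widest was the cannabinoid receptor gene Cnr2 (0.317 in PC to 0.648 in FC_WT), followed by the lysophosphatidic acid receptor gene P2ry5, now Lpar6 (0.267 in FC_WT to 0.515 in GCL), and Ptafr, the receptor gene for platelet-activating factor (0.434 in FC_WT to 0.573 in DG). The others were Edg7, now Lpar3 (0.672 in FC_WT to 0.799 in GCL), Edg3, now S1pr3 (0.0697 in FC_WT to 0.193 in HYP), Edg8, now S1pr5 (0.814 in TH to 0.912 in DG), Edg4, now Lpar2 (0.0954 in FC_WT to 0.151 in PC), and Lpar1 (0.0343 in SN to 0.0524 in PC). FC_WT, the lowest region at several of these genes, has only 2 samples, and its median log2 difference from the other regions over all CpGs was -0.19. The median difference between the highest and the lowest region was 0.111 over the 12 genes. It was 0.0398 over the 9 receptor genes found by name, which leave out Cysltr1, and 0.0496 over all CpGs.

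Frontal cortex of 3TG mice was set against that of wild-type mice in a limma fit over all 13 groups, in which genotype and genetic background cannot be told apart. None of the 9 genes passed the test (adjusted p = 0.999 for each), where 1.31% of all CpGs were called. An unadjusted p under 0.05 was reached by 0 of the 9 genes and by 23 of the 382 CpGs. Tbxa2r was at 0.641, 0.643 and 0.653 in the 3TG samples and at 0.532 and 0.648 in the wild-type samples. The groups overlapped, and the log2 difference was 0.33 with a 95% confidence interval from -0.44 to 1.11. The difference furthest from 0 was at Ptgdr (-0.46, from -1.23 to 0.31), with 0.0700, 0.0737 and 0.0965 against 0.0907 and 0.123. Intervals of this width do not show that the genotypes are alike.

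The replicate codes begin with F or M in 10 regions, and the labels do not say what the letters mean. With region as a covariate, 0 of the 9 genes differed between F-coded and M-coded samples in limma (adjusted p = 0.991 for each), where 3.93% of all CpGs were called. At an unadjusted p under 0.05 there were 0 of the 9 genes and 30 of the 382 CpGs. At Tbxa2r the log2 difference was -0.12 with a 95% confidence interval from -0.37 to 0.13. A test of whether the difference between the letters varied by region called 0 of the 9 genes, as it called 0% of all CpGs. Ptgfr came nearest (adjusted p = 0.0717) and was the 1 gene with an unadjusted p under 0.05, which 71 CpGs had.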

How the data were processed

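The values the authors deposited are beta values, a fraction between 0 and 1, for 382 CpGs on 58 arrays. Per the labels' protocols, genomic DNA was extracted with phenol, and, per the series design, bisulphite-converted DNA was hybridised to a custom GoldenGate array. Scanner software, background correction, normalization and genome build are not stated there, and signal over background and bead numbers were not used, so the number of arrays limits the precision. Array means of beta ran from 0.249 to 0.289 and first quartiles from 0.0456 to 0.0995.

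Groups follow the tissue and genotype labels. The arrays CPU M4_a and M4_b (correlation 0.987) were averaged as 1 replicate, which left 57 samples.

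limma 3.58.1, run in R 4.3.3, tested log2(beta / (1 - beta)) after beta had been held within 0.01 and 0.99, with moderated variances, Benjamini-Hochberg adjustment over the 382 CpGs and a threshold of 0.05. A fit over the 53 samples of 11 regions gave the F-test, each region minus the mean of the other 10, and the 55 pairs. The fits were tested on simulated data. Promoter CG counts came from the RefSeq table (GRCm38.p6); with 74.3% of the 382 CpGs matched, under the 80% needed, no check over the array was made. Tables and figures were made in Python 3.11.15 with matplotlib 3.10.9, pandas 2.3.3, scipy 1.17.1 and numpy 2.4.6.

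The receptor genes, the lists and the tests were chosen with earlier results of these data known. All 9 receptor genes are named, with, for each one that passed the F-test, the 3 most like and the 1 most opposite gene by region means, and the genes of the lists that passed. Alternatives were untransformed beta, limits of 0.05 and 0.95, quantile normalization, centred arrays, a filter on mean beta, X-linked CpGs left out, a minimum difference of 0.1, trended robust variances, the code letter as a covariate, a replicate block, 1 of the CPU M4 arrays alone, other sets of samples, each sample left out in turn and, chosen after seeing the data, PC F2 and M3 left out.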

Additional observations from a re-analysis of the deposited data

Results flagged for a closer look

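Of 90 groups of 4 to 6 samples over the 9 genes, 8 held a sample far from the others by Dixon's criterion, where chance alone gives about 1 in 20. At Ptgdr, GP F4 was at a beta of 0.105 while the other GP samples lay between 0.0618 and 0.0726. At Ptger3, CA3 F3 was at 0.0410, above 0.0344 to 0.0349 in the rest of CA3. At Ptger4, CPU M4 was at 0.108 (others 0.0799 to 0.0881) and SN M1 at 0.0692 (others 0.0819 to 0.0867). At Cysltr2, CA3 M4 was at 0.689, below 0.717 to 0.720. At Ltb4r1, HYP F4 was at 0.463, below 0.567 to 0.595. At Ltb4r2, CPU F1 was at 0.857 (others 0.918 to 0.937) and SN F2 at 0.888 (others 0.936 to 0.949).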

How the results depend on the processing

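The calls of Tbxa2r, Ptger2 and Cysltr2 in the F-test were kept in all 67 alternatives, as were those of Tbxa2r in CPU, GCL, HYP, PC, SN and TH, Ptger2 in GCL and Cysltr2 in CPU. Between 4 and 5 of the 9 genes passed the F-test over all alternatives, and between 4 and 5 with each sample left out. The number of differences between a region and the others called, 16 in the reported fit, was 25 with quantile normalization (12 higher and 13 lower, against 9 and 7) and 17 with centred arrays (10 and 7), and 14 to 19 with each sample left out. The pairs called ran from 68 to 83 with each sample left out and from 51 to 107 over all alternatives. With quantile normalization PC at Ptger3 turned to -0.024 and BLA at Tbxa2r lost its call (0.51, adjusted p = 0.0937). With the replicate block, fitted without FC_WT, 51 pairs and 13 region differences were called, DG at Ltb4r1 turned to 0.032 (adjusted p = 0.994) and DG at Tbxa2r was -0.38 (adjusted p = 0.993), both resting on DG F3 alone because the codes of the other 4 DG samples occur in no other region. In the same fit BLA at Tbxa2r was 0.52 (0.0917), PC at Ltb4r2 -0.43 (0.113), and the F-test of Ptgfr passed (0.0468) while that of Ltb4r1 did not (0.392). The deviations of 149 pairs of samples with the same code correlated between -0.549 and 0.881 over all CpGs. Their median was 0.332, against -0.0702 for pairs with different codes. Without X-linked CpGs the medians were -0.0151 for the same code and -0.00254 for different codes. Of 47 samples, 18 correlated best with their own code over all CpGs and 12 without X-linked CpGs. The number expected by chance was not computed, so this check cannot decide whether samples with the same code share a mouse. The reported fits leave the codes out, and their p-values would not account for such sharing. Whether a call lost with the replicate block reflects a smaller difference was not tested. With a minimum difference of 0.1 in beta, GCL at Cysltr2, PC at Ptger2, Ptger3 and Ltb4r2 and DG at Ltb4r1 drop out by construction. With CPU M4_a alone, CA3 at Tbxa2r had an adjusted p of 0.051. With centred arrays Ptger3 passed the F-test (0.000355) and PC lost its call there (0.17, adjusted p = 0.0758).

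For the variation of the letter difference by region, 1 gene passed with untransformed beta (Ptgfr, adjusted p = 0.0393) and 2 with limits of 0.05 and 0.95 (Ptgfr, 0.0391, and Ptger3, 3.31e-13). Most values of Ptger3 lie below 0.05, so those limits make them constant. Leaving out each sample gave 0 to 1, the 1 being Ptgfr without DG F3 (0.0409), HYP F1 (0.0443) or PC F2 (0.00802). The 3TG and letter comparisons called 0 of the 9 genes in every alternative run. Without signal over background the precision of the values near 0 and 1 is not known.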

Other observations

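The 1 sample of CA1 from a 3TG mouse has no wild-type CA1 sample beside it and entered no comparison. Its beta was 0.291 at Tbxa2r, under the lowest of the 53 samples of the other regions, 0.303, and 0.480 at Ltb4r1. At Ptger2 it was 0.155, at Cysltr2 0.669 and at Ltb4r2 0.912. The sparsely methylated genes were at 0.0531 (Ptger3), 0.0602 (Ptgfr), 0.0963 (Ptgdr) and 0.110 (Ptger4).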
